A study of Mus musculus with 10 samples.

Results

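Wapal depletion was compared with an empty vector in mouse embryonic stem cells (ESCs), and the change of every gene on the array is described here. The comparison used 6 of the 10 arrays of the series, chosen by their labels: Empty Vector (2 arrays), Wapal shRNA1 (2) and Wapal shRNA2 (2). The other 4 arrays carried hairpins against Smc3. The cells were CJ9 ESCs, which derive from strain 129svj. They took up lentivirus with no hairpin or with 1 of the short-hairpin RNAs (shRNAs) against Wapal for 48 h, with polybrene at 10 µg/mL. All 3 groups, the controls included, then received LIF and puromycin at 4 µg/mL and were kept until 48 h after infection, when total RNA was taken for Affymetrix Mouse Genome 430 2.0 arrays. Each group was a bulk population selected with puromycin, so fewer cells of a type and less RNA per cell cannot be told apart. The replicates are labelled biological, but nothing says that they were infected or cultured separately, so p-values reflect the spread among these arrays, part of which may be technical.

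Cohesin is a ring-shaped complex with Smc3 among its core subunits that holds sister chromatids together and forms chromatin loops. Wapal (gene symbol Wapl) opens the ring and releases cohesin from chromatin, and cohesin stays bound for longer when Wapal is lost. In ESCs, cohesin lies at enhancers, promoters and insulator sites, near genes of the pluripotent state and near developmental genes that are kept silent.

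Values are intensities of probe sets, and changes are log2 differences between the mean of both Wapal shRNA groups and Empty Vector, with the standard error (SE) of limma's fit (n = 4 against 2). A gene is given by its brightest probe set, and it rose or fell where limma's p, adjusted over 45037 probe sets, was under 0.05. Of 773 called genes with several probe sets, 245 had the same call on another one. The number of probe sets with a call is given below for some genes only. Other calls on 1 of several include those of Cyria and Inhbb (1 of 2). Plagl1, Esrrb, Tfcp2l1, Pola2, Nid1 and Slc7a1 were called on 1 of 3. Array medians lay between 38.6 and 39.7, and the number of arrays limits the precision. Wapl itself had an intensity of 2500.0 and 2648 with Empty Vector, 929 and 1005 with shRNA1 and 235 and 217 with shRNA2, so both hairpins lowered it and shRNA2 lowered it further. Of the 5 Wapl probe sets 2 fell. A second table exchanges the labels of replicate 2 of Wapal shRNA1 with those of replicate 1 of Wapal shRNA2. The deposited sample labels were used, and under them the Wapl values of each hairpin's replicates lie together. All 8 ESC markers were bright on every array, with a summed intensity of 61771 to 64927 with Empty Vector and 61102 to 67585 with the Wapal shRNAs, and 0 rose and 0 fell (4 at an unadjusted p under 0.05, 3 of them lower). Of 8 fibroblast markers 7 were dim (mean log2 of 6 or less), Thy1 fell and Dcn rose. The sum of the 8 was 309 to 347 with Empty Vector and 250.5 to 281 with the Wapal shRNAs. The lower sum came from Thy1, the bright one, with 178 and 208 with Empty Vector and 103 to 137 with the Wapal shRNAs. The 7 dim markers together were not lower. Markers of neurons (3), primitive endoderm (4) and trophoblast (3) were all dim with 0 called (3 at an unadjusted p under 0.05, all higher), at summed intensities of 68.3 to 136 on any array, and of 2 measured mesoderm markers 1 was dim and 0 were called. Primitive endoderm markers summed to 105 to 110.3 with Empty Vector and to 126 to 136 with the Wapal shRNAs. The part of other cell types in the results was not tested.

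Wapal depletion moved many genes by small amounts, and more of them down than up. Of 18193 genes, 478 rose (2.63%) and 891 fell (4.9%), which is 7.52% in either direction. The median change was 0.56 among genes that rose and -0.54 among genes that fell, and 254 and 531 of them changed by less than 1.5-fold. A change of more than 1 in log2 was found for 43 genes that rose and 45 that fell. The excess of falling genes lay among bright genes. Of genes with a mean log2 of 8 to 10, 9.03% fell and 3.18% rose, whereas 0.294% fell and 0.881% rose of those under 4. A stricter rule, more than 1.5-fold and the same way under either hairpin, left 128 rising genes (0.704%) and 193 falling genes (1.06%).

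The excess of falling genes depended on the scaling of the arrays. Upper quartiles of intensity were 174 and 175 for Empty Vector and 159 to 165 for the Wapal shRNAs. When the 6 arrays were quantile normalized again, 483 genes rose and 469 fell. Of the 478 genes that rose, 376 passed in this fit too (78.7%), and of the 891 that fell 462 did (51.9%). The median of bright genes was -0.06 before and 0.01 after, and that of dim genes 0.08 and 0.03. Over all 45037 probe sets, 2661 passed (5.91%), of which 937 rose (2.08%) and 1724 fell (3.83%), and 860 rose and 992 fell after quantile normalization. Under the stricter rule 142 genes rose and 139 fell after quantile normalization, of which 112 and 135 were among the 128 and 193 found before, so the excess of falling genes was absent there too.

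**Figure D1:**
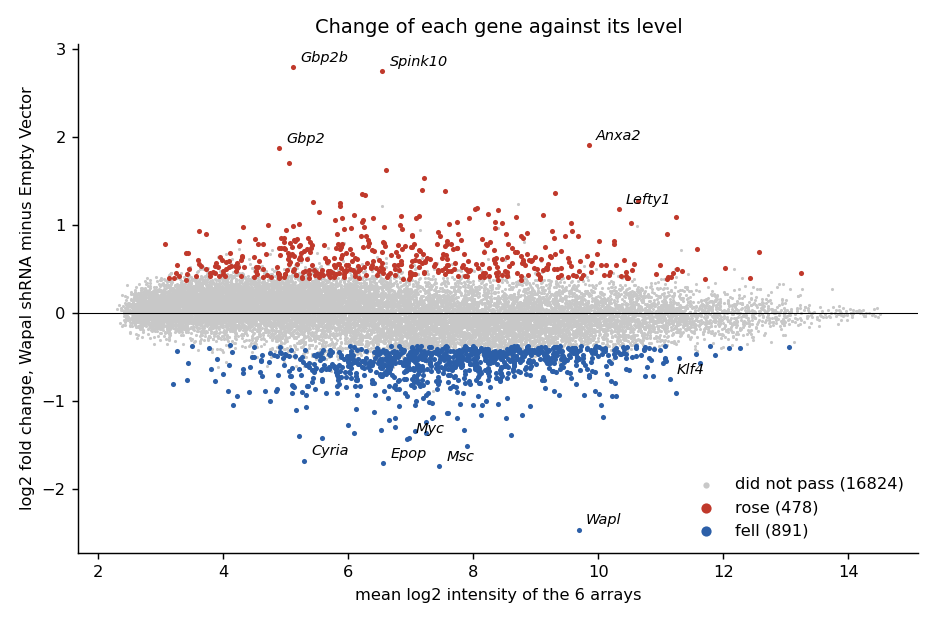
Change of each gene with Wapal depletion in log2 (vertical axis) against its mean log2 intensity over the 6 arrays (horizontal axis), with genes that did not pass in grey and the 478 that rose and 891 that fell in colour. Falling genes outnumber rising genes above a mean log2 of 6 and not below it, and after quantile normalization the counts were 483 and 469.

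The hairpins moved most called genes in the same direction. The sign was the same with both hairpins for 472 of 478 genes that rose and 889 of 891 that fell. Genes that rose went further with shRNA2 in 294 of 478 cases, and genes that fell went further with shRNA1 in 558 of 891. The medians were 0.53 with shRNA1 and 0.61 with shRNA2 for genes that rose, and -0.59 and -0.51 for genes that fell. A further pattern crossed the groups, in which Empty Vector replicate 1 stood near the shRNA1 arrays and Empty Vector replicate 2 near the shRNA2 arrays, here called sides. Within these sides the medians were 0.59 and 0.56 for rises and -0.57 and -0.53 for falls. The difference between the hairpins passed for 264 genes (1.45%). In 252 of them the Empty Vector arrays of both sides differed by under 50% of the hairpin difference, and in 193 they differed in the same direction. Over all probe sets the Empty Vector difference and the hairpin difference had a correlation of 0.40. Leaving out 1 array leaves a fit with 2 residual degrees of freedom, and without an Empty Vector array the other one stands alone and is assumed to vary like the Wapal shRNA arrays. All 1369 called genes kept their sign in the 6 such fits, but only 76 of 478 rises and 116 of 891 falls passed in each of them, against 66 of 128 and 97 of 193 among genes over 1.5-fold.

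Ranked by the smaller change of both hairpins, the gene that rose most was Spink10, of a family of secreted serine protease inhibitors. Its intensity was 21.6 and 32.1 with Empty Vector, 181 and 189 with shRNA1 and 153 and 185 with shRNA2, a rise of 2.75 ± 0.16 or 6.71-fold (adjusted p = 0.000675). All 4 Wapal shRNA arrays lay far above both Empty Vector arrays, and the hairpins gave 2.81 and 2.68. Of 28 Spink and serpin inhibitors 3 rose and 1 fell, and the one that fell was Spink1 (-1.39 ± 0.22), a pancreatic trypsin inhibitor, at 251 to 358 against 1009 and 543. The serpins that rose were Serpinb9 and Serpinf1. After quantile normalization 1 of the family rose and 1 fell.

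The guanylate-binding proteins, GTPases that cells make in response to interferon and that attack intracellular microbes, gave the next of the largest rises. Gbp2b had 7.78 and 11.8 with Empty Vector, 35.9 and 46.9 with shRNA1 and 109 and 105 with shRNA2, a rise of 2.79 ± 0.17 (adjusted p = 0.000794). Its neighbour Gbp2 had 12.1 and 13 with Empty Vector, 22.6 and 28.5 with shRNA1 and 90.8 and 75 with shRNA2 and rose by 1.87 ± 0.13 (adjusted p = 0.00106). Both were dim in the controls, where a fold has no firm base, and with an offset of 16 added to all intensities the log2 changes were 1.71 for Gbp2b and 1.16 for Gbp2. Both stood clearly higher with shRNA2 than with shRNA1, with 2.10 against 3.48 for Gbp2b and 1.02 against 2.72 for Gbp2 (adjusted p of the difference 0.0279 and 0.0102). Irgm1, an interferon-induced GTPase of autophagy, rose by 1.04 ± 0.17 and lay at 77.1 to 118 on the 4 Wapal shRNA arrays against 43.1 and 50 with Empty Vector. Ifi47, of the same GTPase family, rose by 0.79 ± 0.10 at a low level, 24.6 to 30.6 against 16.6 and 16.1, and by 0.45 with the offset. Of 11 measured members of this list 4 rose (36.4%, beside 2.63% of all genes) and 0 fell. The median of the list was 0.32 beside 0.01 over all genes. With 1 array left out at a time, Gbp2b, Gbp2 and Ifi47 passed in all 6 fits. Irgm1 did not pass without Empty Vector replicate 1 or Wapal shRNA1 replicate 2 (adjusted p up to 0.0847).

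The promoters of Gbp2b, Gbp2 and Irgm1 are printed as those of the 3 largest rises of this list. All 3 carry the core of the interferon-stimulated response element, GAAA, any 2 bases and GAAA, whereas the window of Ifi47, the fourth gene that rose, does not. The windows run from 250 bases before to 50 bases after the annotated start, 5′ to 3′ on the gene's strand, from RefSeq for assembly GRCm38.p6. The Gbp2b window is chr3:142594597-142594896 on the plus strand, the Gbp2 window chr3:142620413-142620712 on the plus strand and the Irgm1 window chr11:48871371-48871670 on the minus strand. Capitals mark the motif or its reverse complement.
Gbp2b: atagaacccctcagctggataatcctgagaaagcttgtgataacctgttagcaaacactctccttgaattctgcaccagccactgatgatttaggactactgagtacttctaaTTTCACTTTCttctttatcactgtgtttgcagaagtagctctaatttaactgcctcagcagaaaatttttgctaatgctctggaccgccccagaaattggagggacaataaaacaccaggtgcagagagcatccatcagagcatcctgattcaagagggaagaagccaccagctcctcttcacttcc
Gbp2: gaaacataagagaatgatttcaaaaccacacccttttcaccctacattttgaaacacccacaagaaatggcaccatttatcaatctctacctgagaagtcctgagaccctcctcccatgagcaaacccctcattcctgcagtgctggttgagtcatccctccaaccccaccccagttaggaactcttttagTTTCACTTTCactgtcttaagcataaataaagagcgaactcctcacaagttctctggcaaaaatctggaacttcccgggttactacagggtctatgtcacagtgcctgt
Irgm1: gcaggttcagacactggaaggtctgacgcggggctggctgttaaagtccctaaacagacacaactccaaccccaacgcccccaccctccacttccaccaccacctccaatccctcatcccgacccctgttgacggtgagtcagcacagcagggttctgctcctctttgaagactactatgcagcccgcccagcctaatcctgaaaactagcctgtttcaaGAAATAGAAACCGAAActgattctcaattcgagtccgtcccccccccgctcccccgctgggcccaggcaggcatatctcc
The match begins 137 bases before the start in Gbp2b and 59 bases before it in Gbp2, and Irgm1 has 2 overlapping matches that begin 30 bases before it. The Gbp2b window holds 1 CG and the Gbp2 window 2, against 11 for Irgm1. The motif was found on either strand in 3.03% of 14367 promoter windows, in 5.14% of 370 windows of genes that rose and in 2.41% of 706 of genes that fell. Among 102 windows of genes that rose under the stricter rule it was in 10 (9.80%), and the other genes were Pdha2, Wls, Bmt2, Trim12c, Ddx60, Erap1 and Selenop. A match of letters does not show that a factor bound there.

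Other genes among the 25 with the largest rises act at the membrane, in signalling and in the germline. Anxa2, a calcium-dependent membrane-binding protein, had 273 and 535 with Empty Vector, 856 and 889 with shRNA1 and 2181 and 2496 with shRNA2, a rise of 1.90 ± 0.23 (adjusted p = 0.00677). It rose by 2.61 with shRNA2 and 1.19 with shRNA1, and the Empty Vector arrays themselves lay apart. Its relative Anxa1 rose by 0.75 ± 0.10. Of 23 annexins and S100 proteins these 2 rose (8.7%, beside 2.63% of all genes) and 0 fell, with a median of 0.20. Lefty1, a secreted inhibitor of Nodal, had 663 and 842 with Empty Vector, 1426 and 1759 with shRNA1 and 1904 and 1705 with shRNA2 and rose by 1.18 ± 0.13 (adjusted p = 0.00627). Pla2g7, a secreted phospholipase that inactivates platelet-activating factor, had 71.9 and 80.2 with Empty Vector, 238 and 258 with shRNA1 and 162 and 158 with shRNA2. It rose by 1.39 ± 0.10 and went further with shRNA1 (1.71 against 1.07).

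Fut9, the fucosyltransferase that makes the SSEA-1 antigen of mouse ESCs, rose by 1.34 ± 0.15, with 80.8 to 146 on the 4 Wapal shRNA arrays against 35.7 and 47.9 with Empty Vector, and all 3 of its probe sets rose. The follistatin-like gene Fstl5 rose by 1.70 ± 0.20, with 30.4 to 68 against 17.1 and 13.3. Coch, a secreted protein of the inner ear, rose by 1.08 ± 0.13, and Jph1, which ties the endoplasmic reticulum to the plasma membrane in muscle, by 0.97 ± 0.10. Aass, the first enzyme of lysine breakdown, rose by 1.02 ± 0.12, and the neuropilin Nrp2, a coreceptor for semaphorins and vascular growth factors, by 0.98 ± 0.18 (on 1 of 4 probe sets). The cyclin-like Ccng2, an inhibitor of cell cycle progress, rose by 1.36 ± 0.22 with 649 to 1229.6 on the 4 Wapal shRNA arrays against 245 and 462 with Empty Vector. The immediate early gene Ier5 rose by 1.08 ± 0.15, the reductase gene Zadh2 by 1.08 ± 0.15 and the transmembrane Gla protein Prrg1 by 0.97 ± 0.12. Ier5 and Prrg1 each rose on 1 of 3 probe sets. Sycp3 and Tcp11x2, both of the germline, rose by 1.17 ± 0.16 and 1.15 ± 0.12. The remaining genes were 3110040M04Rik (1.54 ± 0.13), Gm21283 (1.34 ± 0.17), 1700019A02Rik (1.26 ± 0.09), BC080696 (1.13 ± 0.12), C130073F10Rik (1.03 ± 0.09) and Pramel18 (0.96 ± 0.11). In each of them all 4 Wapal shRNA arrays lay above both Empty Vector arrays, as the ranking asked, and 2908 of 18193 genes did so (16%). Of the 25 calls, 22 stood whichever array was dropped. Those of Irgm1, Ccng2 (in 3 of the 6 fits, adjusted p up to 0.063) and Nrp2 (in 1 fit, up to 0.0759) did not.

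Among the 25 genes that fell most by the same ranking, the first was Cyria, a protein that binds Rac1 and restrains actin-driven protrusion. Cyria had 88.9 and 81.5 with Empty Vector, 29 and 27.2 with shRNA1 and 25.4 and 24.9 with shRNA2, a fall of -1.68 ± 0.09 (3.2-fold, adjusted p = 0.000675). Epop, a partner of Polycomb that ESCs express, had 214 and 201 with Empty Vector, 44.8 and 67.1 with shRNA1 and 68.3 and 80.3 with shRNA2 and fell by 1.70 ± 0.16 (adjusted p = 0.00377). Msc, a basic helix-loop-helix repressor of muscle lineages, had 467 and 330.4 with Empty Vector, 151 and 137 with shRNA1 and 98.2 and 92.8 with shRNA2 and fell by 1.74 ± 0.14 (adjusted p = 0.00213). In all 3 genes the highest Wapal shRNA array lay far below the lower Empty Vector array. The ephrin receptor Epha4 fell by 1.51 ± 0.16 on its brightest probe set, with 149.9 to 198 on the 4 Wapal shRNA arrays against 562 and 413 with Empty Vector, and all 5 of its probe sets fell. Of 20 Eph receptors and ephrins it was the only one that fell (5%, beside 4.9% of all genes). Efnb2 and Ephb4 rose (10%, beside 2.63% of all genes).

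Several of these genes code for proteins of the membrane and the cell surface. The gap junction protein Gjb5, of placenta and skin, fell by 1.34 ± 0.09 with tight replicates, 90.7 to 107 against 247 and 251. The glutamate receptor Grik3 fell by 1.27 ± 0.10, the metal transporter Slc11a1 by 1.19 ± 0.09, the axon guidance cue Ntn1 by 1.24 ± 0.15 and the laminin chain Lama1 by 1.09 ± 0.12. Rab6b, a GTPase of Golgi transport in neurons, fell by 1.42 ± 0.13, the peptide-processing enzyme Cpe by 1.18 ± 0.09 and the adaptor She by 1.36 ± 0.21. The kinase Sgk2 fell by 1.43 ± 0.11, the ketone body enzyme Bdh2 by 1.14 ± 0.11 and the methionine sulfoxide reductase Msrb2 by 1.20 ± 0.14. By limma all of these genes had an adjusted p between 0.000861 and 0.0133. The others were Btbd11 (-1.34 ± 0.11), Kbtbd11 (-1.20 ± 0.10, on 1 of 4 probe sets), Tdrp (-1.04 ± 0.11), A930004D18Rik (-1.39 ± 0.15, on 1 of 3), the H3K4 methyltransferase Setd1b (-1.32 ± 0.21), the zinc finger gene Zfp607b (-1.12 ± 0.24) and Dnaaf4 (-1.07 ± 0.18), which acts in the assembly of ciliary dynein. All 4 Wapal shRNA arrays lay below both Empty Vector arrays in each, as in 3091 of 18193 genes (17%). Of the 25 calls, 20 stood whichever array was dropped. The exceptions were She (in 4 of the 6 fits, adjusted p up to 0.0723), Spink1 (3, up to 0.0594), Setd1b (2, up to 0.062), Dnaaf4 (2, up to 0.0721) and Zfp607b (2, up to 0.129), which quantile normalization put past 0.05 as well (adjusted p = 0.053).

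**Figure D2:**
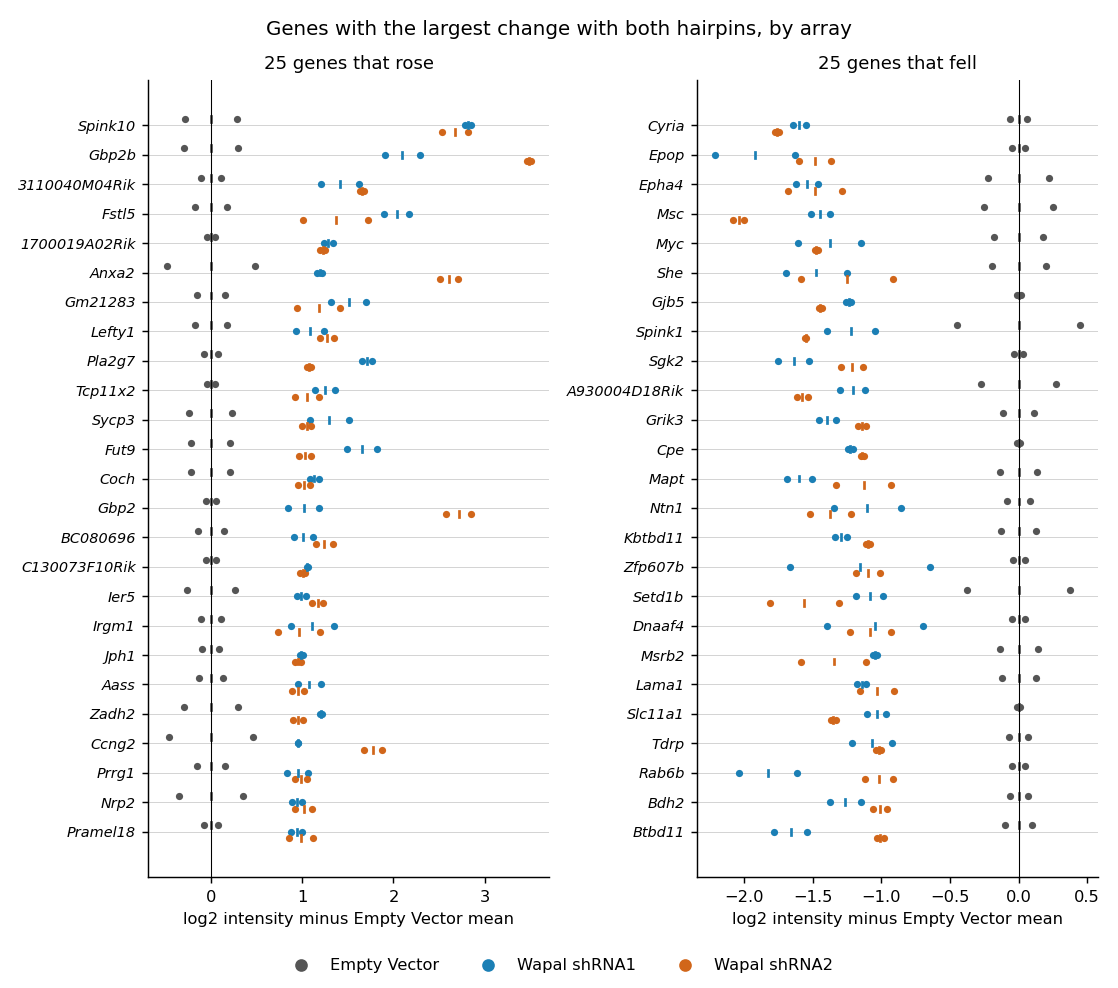
Log2 intensity on each of the 6 arrays minus the Empty Vector mean (horizontal axis) for the 25 largest rises and 25 largest falls by the smaller change of both hairpins (vertical axis). Points are single arrays, all 4 Wapal shRNA points lie beyond both Empty Vector points in every gene, and Gbp2b, Gbp2 and Anxa2 lie further out with shRNA2 than with shRNA1.

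Several genes of growth and of entry into the cell cycle fell. Myc, the transcription factor that drives growth and ribosome synthesis, had 274 and 214 with Empty Vector, 79.4 and 109 with shRNA1 and 86.6 and 87.7 with shRNA2, a fall of -1.43 ± 0.15 (2.69-fold, adjusted p = 0.00503), with -1.38 and -1.47 from the hairpins. Its paralog Mycn and its partner Max did not pass (-0.11 ± 0.09 and -0.21 ± 0.14). On a list of 38 cyclins, cyclin-dependent kinases, their inhibitors and E2F factors, 7 fell and 3 rose. All 3 D cyclins, which act in the G1 phase, were among those that fell, and no kinase was. Ccnd2 had 179 and 174 with Empty Vector, 40.4 and 55.9 with shRNA1 and 115 and 129 with shRNA2 and fell by 1.21 ± 0.14, on 6 of its 7 probe sets, and further with shRNA1 (-1.89) than with shRNA2 (-0.54). Ccnd3 fell by 0.64 ± 0.09 on 1 of 3 probe sets. It had 519 to 653 on the 4 Wapal shRNA arrays against 897 and 915 with Empty Vector, and Ccnd1 fell too. The 4 E2F genes that fell were E2f2, E2f3, E2f7 and E2f8, and E2f8, a repressor of S phase genes, gave -0.61 ± 0.09, while another of its probe sets rose. The genes that rose were all inhibitors of the cycle: Cdkn1c (0.78 ± 0.10, 0.32 and 1.24 from the hairpins), Cdkn1b (0.62 ± 0.11) and Ccng2. After quantile normalization 5 of the list fell and 3 rose. The shares before it were 18.4% that fell and 7.89% that rose, beside 7.82% and 3.05% of all bright genes.

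Myc, Ccnd2 and Ccnd3 passed whichever of the 6 arrays was left out, and Ccnd1 did not. E2f8 and Cdkn1c did not pass without Empty Vector replicate 1 (adjusted p up to 0.0506 and 0.0505). Cdkn1b passed only without Empty Vector replicate 2 (adjusted p up to 0.099 in the others). Of 49 ribosome biogenesis genes, 8 fell (16.3%) and 0 rose, beside 7.82% of all bright genes that fell. The median of the list was -0.22. Polr1e, a subunit of RNA polymerase I, which transcribes ribosomal RNA, had 409 and 378 with Empty Vector, 217 and 219.9 with shRNA1 and 221 and 248 with shRNA2 and fell by 0.80 ± 0.10 (adjusted p = 0.00691). Noc4l, of the small subunit processome, fell by 0.73 ± 0.11 on all 4 probe sets, and Rrs1 and Rrp12, which act in large subunit assembly and export, by 0.55 ± 0.09 and 0.63 ± 0.12. The abundant nucleolar proteins Ncl, Npm1 and Fbl gave -0.09 ± 0.09, -0.03 ± 0.09 and -0.15 ± 0.09 and did not pass, and of 38 cytosolic ribosomal proteins 0 rose and 0 fell, with a median of 0.01. After quantile normalization 3 of the 49 fell, Rrp12 was not among them, and the median was -0.16. The call of Polr1e stood whichever array was dropped. Noc4l did not pass without Wapal shRNA1 replicate 2 or Wapal shRNA2 replicate 1 (adjusted p up to 0.0582). Rrs1 passed only without Empty Vector replicate 2 (adjusted p up to 0.0657 in the others). Rrp12 passed only without Empty Vector replicate 1 (adjusted p up to 0.0869 in the others).

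Of 47 DNA replication genes, most of them bright, 5 fell (10.6%) and 0 rose, beside 7.82% of all bright genes that fell. Cdc6, which loads the replicative helicase at origins, had 849.6 and 833 with Empty Vector, 389.9 and 429.8 with shRNA1 and 517 and 536 with shRNA2 and fell by 0.86 ± 0.09 (adjusted p = 0.00533). Pola2, of DNA polymerase alpha, fell by 0.62 ± 0.11, and the ribonucleotide reductase subunit Rrm2 by 0.47 ± 0.10, and the helicase subunit Mcm2 (-0.41 ± 0.11) and the sliding clamp Pcna (-0.04 ± 0.09) did not pass. Of 42 DNA repair and checkpoint genes, 41 of them bright, 4 fell and 0 rose, beside 7.82% of all bright genes that fell, among them Brca2 (-0.51 ± 0.12), and of 51 mitosis and condensin genes 0 rose and 0 fell, with a median of 0.02. With quantile normalization 2 replication and 0 repair genes fell, and the calls of Rrm2 (adjusted p = 0.0546) and Brca2 (0.0665) were lost. In each fit with 1 array fewer, Cdc6 passed. Pola2 passed only without Empty Vector replicate 1 (adjusted p up to 0.0793 in the others). Rrm2 and Brca2 passed in no fit that left out an array (adjusted p up to 0.131 and 0.135).

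Some genes of the microtubule cytoskeleton fell. Of 31 tubulins and microtubule regulators 6 fell (19.4%) and 0 rose, with a median of -0.01. Of all genes 4.9% fell and 2.63% rose (7.82% and 3.05% of bright genes). Tubb3, the neuronal beta-tubulin, had 207 and 185 with Empty Vector, 43 and 54.6 with shRNA1 and 123 and 138 with shRNA2 and fell by 1.30 ± 0.12 (adjusted p = 0.0039). Every Wapal shRNA array lay below both controls, but shRNA1 gave -2.01 and shRNA2 -0.58. Mapt, the microtubule-binding protein tau, had 261 and 314 with Empty Vector, 101 and 88.8 with shRNA1 and 114 and 151 with shRNA2 and fell by 1.36 ± 0.14 (adjusted p = 0.00469). The beta-tubulin Tubb2a fell by 0.74 ± 0.09 with 564 to 714 on the 4 Wapal shRNA arrays against 1021 and 1118 with Empty Vector. The kinesin Kif5c (-0.79 ± 0.09) and the plus-end binding protein Mapre2 (-0.73 ± 0.10) fell as well, and both went further with shRNA1. The calls of these 5 genes stood whichever array was dropped and with quantile normalization, and Stmn3 passed in no fit with an array dropped (adjusted p up to 0.157). Of 43 actin and myosin genes 1 rose and 1 fell.

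Single members of the signalling pathways changed while most members did not pass. The pathway counts stand beside 2.63% of all genes that rose and 4.9% that fell, and 3.05% and 7.82% of bright genes. In the Hedgehog pathway, 3 of 19 measured genes fell and 1 rose. Gli1, a transcription factor and target of the pathway, had 59.1 and 60.1 with Empty Vector, 21.2 and 27 with shRNA1 and 32 and 32.8 with shRNA2 and fell by 1.10 ± 0.12 (adjusted p = 0.00495). Gli2, the main activator, had 765 and 795 with Empty Vector, 313 and 341 with shRNA1 and 501 and 374 with shRNA2 and fell by 1.05 ± 0.13 (adjusted p = 0.0069). The intensities of all 4 Wapal shRNA arrays lay below both controls in both genes. Sufu, which holds the Gli proteins in check, fell by 0.93 ± 0.18, and Gas1, a coreceptor for the ligands, rose by 0.69 ± 0.11, each on 1 of 3 probe sets. The receptor Ptch1 (0.14 ± 0.12), the transducer Smo (-0.28 ± 0.12) and Gli3 (0.19 ± 0.16) did not pass. With 1 array left out at a time, Gli1 and Gli2 passed in all 6 fits. Gas1 did not pass without Empty Vector replicate 1, Wapal shRNA1 replicate 2 or Wapal shRNA2 replicate 2 (adjusted p up to 0.0737). Sufu did not pass without Empty Vector replicate 1, Wapal shRNA2 replicate 1 or Wapal shRNA2 replicate 2 (adjusted p up to 0.121).

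Of 29 Nodal, activin and TGF-beta genes 2 rose and 2 fell. Beside Lefty1, Skil, a corepressor of Smad proteins that is itself a target of the pathway, had 1289.8 and 1633 with Empty Vector, 2554 and 2575 with shRNA1 and 2801 and 2930.3 with shRNA2 and rose by 0.90 ± 0.11 (adjusted p = 0.00763). Inhbb, the beta-B subunit of activins and inhibins, had 1111 and 939.6 with Empty Vector, 404 and 393 with shRNA1 and 757 and 686 with shRNA2 and fell by 0.93 ± 0.11 (adjusted p = 0.00615), further with shRNA1 (-1.36) than with shRNA2 (-0.50). Nodal (0.29 ± 0.09) and Lefty2 (0.59 ± 0.16, adjusted p = 0.0679) did not pass, and the convertase gene Pcsk6 fell. Of 27 BMP genes 2 rose and 0 fell. Id1, a direct BMP target that blocks basic helix-loop-helix factors, had 467 and 533 with Empty Vector, 997 and 1193 with shRNA1 and 786 and 879 with shRNA2 and rose by 0.93 ± 0.12 (adjusted p = 0.00729), and the receptor Bmpr1b rose. Lefty1, Skil, Inhbb and Id1 passed whichever of the 6 arrays was left out.

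In the Wnt pathway 2 of 48 genes rose and 5 fell. Lef1, a transcription factor that beta-catenin binds, had 104 and 93 with Empty Vector, 166 and 204 with shRNA1 and 357 and 356 with shRNA2 and rose by 1.38 ± 0.11 (adjusted p = 0.00213), with 0.91 and 1.86 from the hairpins. Wls, the carrier that brings Wnt ligands to the cell surface, rose by 0.89 ± 0.10 with 135 to 183 on the 4 Wapal shRNA arrays against 82.4 and 91 with Empty Vector. The genes that fell included the receptor Ror2 (-0.61 ± 0.10), the transcription factor Tcf7l2 (-0.59 ± 0.10, on 1 of 4 probe sets) and the Wnt deacylase Notum (-0.57 ± 0.10), with Fzd5 and Porcn. Ctnnb1, which codes for beta-catenin (-0.01 ± 0.09), and the target gene Axin2 (0.23 ± 0.16) did not pass. After quantile normalization 2 rose and 3 fell. The calls of Lef1 and Wls stood whichever array was dropped. Ror2 passed only without Empty Vector replicate 1 or Wapal shRNA2 replicate 1 (adjusted p up to 0.0648 in the others). Tcf7l2 and Notum passed only without Wapal shRNA2 replicate 1 (adjusted p up to 0.0651 and 0.0942 in the others).

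Of 26 Notch genes 2 rose and 3 fell. The ligand Dll1 had 75.9 and 74.5 with Empty Vector, 112 and 118 with shRNA1 and 195 and 174 with shRNA2 and rose by 0.95 ± 0.10 (adjusted p = 0.00425), whereas the receptors Notch1 (-0.60 ± 0.09) and Notch4 (-0.83 ± 0.15) fell, with 114 to 126 on the 4 Wapal shRNA arrays against 190.3 and 175 with Empty Vector for Notch1. Notch2 fell and the target Hey1 rose, while the target Hes1 (-0.13 ± 0.13) and the effector Rbpj (-0.25 ± 0.09) did not pass. Of 33 genes of FGF signalling and its feedback, 1 rose and 4 fell, among them the ligand Fgf17 (-0.83 ± 0.10, 50.7 to 74.6 against 109.8 and 105) and Phlda1 (-0.71 ± 0.11), which ERK signalling induces. In each fit with 1 array fewer, Dll1 and Fgf17 passed. Notch1 passed only without Empty Vector replicate 2 (adjusted p up to 0.0741 in the others). Notch4 and Phlda1 did not pass without Empty Vector replicate 1, Wapal shRNA2 replicate 1 or Wapal shRNA2 replicate 2 (adjusted p up to 0.096 and 0.0705).

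**Figure D3:**
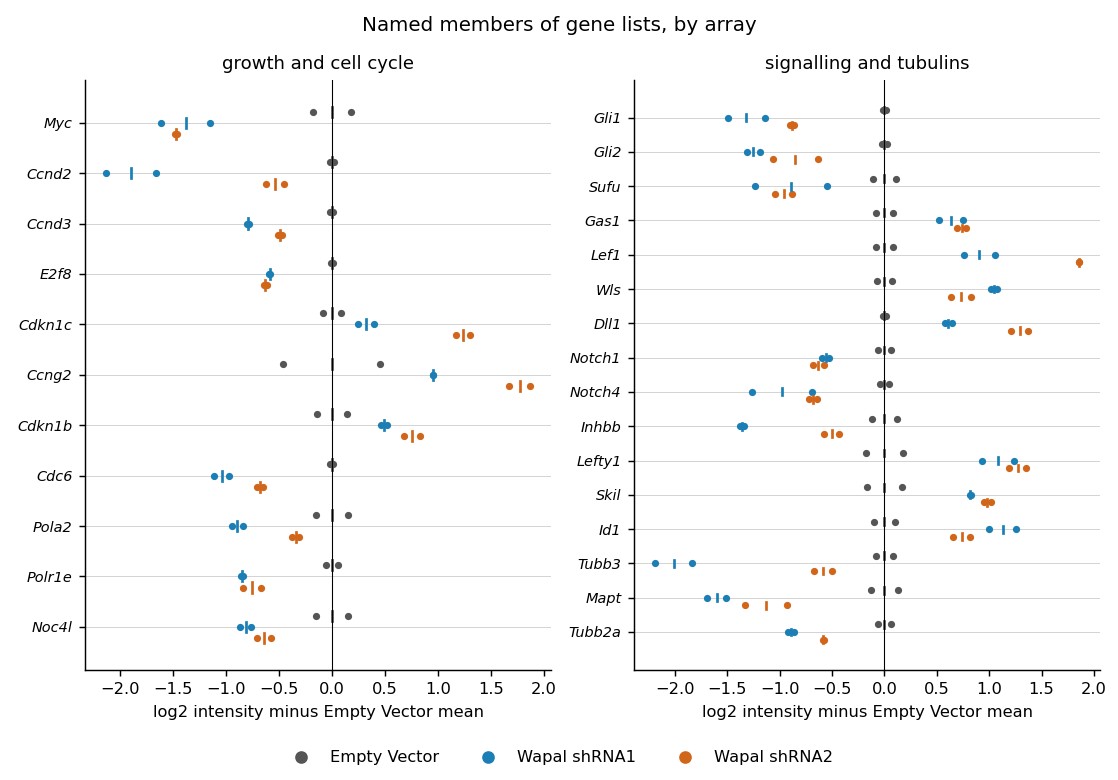
Log2 intensity on each of the 6 arrays minus the Empty Vector mean (horizontal axis) for members of the growth, cell cycle, ribosome biogenesis, replication, signalling and tubulin lists (vertical axis). The Wapal shRNA points of Myc, Ccnd2, Gli1, Gli2, Mapt and Tubb3 lie below both Empty Vector points and those of Lef1, Id1, Skil and Lefty1 above them, and all of these genes passed with and without quantile normalization.

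Transcription factors of the naive state, the condition of ESCs that are kept in LIF, were the list with the largest share of falling members among the 76 lists. Of 17 measured, 8 fell (47.1%) and 0 rose, beside 7.82% of bright genes that fell. The median of the list was -0.51 beside 0.01 over all genes and -0.06 over bright genes. After quantile normalization 6 of the list fell (median -0.44). Tbx3, which maintains self-renewal, had 1608 and 1848 with Empty Vector, 696 and 636 with shRNA1 and 1127 and 964 with shRNA2 and fell by 1.05 ± 0.11 (adjusted p = 0.00503). Klf4, a reprogramming factor and LIF target, had 2976 and 3448 with Empty Vector, 1724 and 1505 with shRNA1 and 2242 and 2226 with shRNA2 and fell by 0.76 ± 0.11. Sall1 fell by 0.79 ± 0.11 with 154 to 244 on the 4 Wapal shRNA arrays against 322 and 356 with Empty Vector, Esrrb by 0.66 ± 0.11 and Zscan10 by 0.61 ± 0.10. The shRNA1 arrays were the lowest in Tbx3, Klf4, Sall1 and Esrrb, and no difference between the hairpins passed in these 4 genes. Prdm14 and Klf2 fell by 0.52 ± 0.11 and 0.48 ± 0.11, with -0.16 and -0.02 from shRNA2. With 1 array left out at a time, Tbx3, Klf4 and Sall1 passed in all 6 fits. Esrrb passed only without Empty Vector replicate 1 or Empty Vector replicate 2 (adjusted p up to 0.0668 in the others). Zscan10 passed only without Empty Vector replicate 2 (adjusted p up to 0.0762 in the others).

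Of 21 genes of the LIF and JAK-STAT3 pathway, 5 fell and 1 rose, and 3 fell and 1 rose after quantile normalization. Beside Klf4 they were Bcl3, an atypical inhibitor of NF-kB (-0.72 ± 0.09, 75 to 84.5 on the 4 Wapal shRNA arrays against 131 and 129.9 with Empty Vector), the STAT3 target Tfcp2l1 (-0.62 ± 0.12), the receptor Lifr (-0.44 ± 0.10) and the phosphatase Ptpn11 (-0.39 ± 0.09). Socs3, the feedback inhibitor of the pathway, rose by 0.47 ± 0.11, and Stat3 gave -0.19 ± 0.09 and did not pass. The calls of Lifr, Ptpn11 and Socs3 were lost without at least 1 array, with adjusted p up to 0.20 for Socs3 without Empty Vector replicate 1. Bcl3 passed whichever of the 6 arrays was left out. Tfcp2l1 passed only without Empty Vector replicate 1 (adjusted p up to 0.0968 in the others).

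Germline and meiotic genes were the list with the most members that rose. Of 39 measured, 9 rose (23.1%) and 2 fell (5.13%), beside 2.63% and 4.9% of all genes. The median of the list was 0.16, and 9 rose and 1 fell after quantile normalization. Sycp3, of the axis of meiotic chromosomes, had 167 and 232 with Empty Vector, 560.4 and 418 with shRNA1 and 421 and 393 with shRNA2 and rose by 1.17 ± 0.16, 2.25-fold. Mael, which acts in the silencing of transposons by piRNAs, had 313 and 349 with Empty Vector, 924 and 877 with shRNA1 and 584 and 558 with shRNA2 and rose by 1.12 ± 0.10 (adjusted p = 0.00273). Sycp2, another protein of the chromosome axis, rose by 0.78 ± 0.09 with 60.7 to 77.3 against 42.5 and 37.6. These 3 genes rose with both hairpins, Mael further with shRNA1.

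Other members of the list stood higher mainly with shRNA1. Sycp1, the transverse filament of the synaptonemal complex, had 68.4 and 64.1 with Empty Vector, 188 and 173 with shRNA1 and 71 and 74.5 with shRNA2, with 1.44 from shRNA1 and 0.13 from shRNA2 (adjusted p of the difference 0.00955). Slc25a31, the ADP/ATP carrier of germ cells, had 91.4 and 90.1 with Empty Vector, 216 and 205 with shRNA1 and 112 and 109 with shRNA2, a rise of 0.75 ± 0.09. The transcription factor subunit Taf7l (80.2 and 85 with Empty Vector, 192 and 174 with shRNA1 and 86.6 and 73.2 with shRNA2) and the meiotic chromosome protein Hormad1 (90.4 and 83.7 with Empty Vector, 195 and 159 with shRNA1 and 101 and 94.9 with shRNA2) showed the same order of the hairpins. With the hairpins pooled and the side of the array as a term, the calls of Sycp1 (adjusted p = 0.0681), Taf7l (0.198) and Hormad1 (0.0629) were lost. In that fit a difference between the hairpins that the Empty Vector arrays do not share counts as spread, so the loss cannot be assigned to the side. Tdrd12 (0.55 ± 0.12) and Tex15 (0.42 ± 0.09), both of the piRNA pathway, rose too, and Piwil2 (-0.51 ± 0.10) and Stk31 (-0.67 ± 0.10, -0.11 with shRNA1 and -1.23 with shRNA2) fell. The germ cell regulators Ddx4 (0.25 ± 0.09), Dazl (0.21 ± 0.11) and Stra8 (0.13 ± 0.16) and the meiotic recombinase Dmc1 (0.30 ± 0.10) did not pass. The calls of Sycp3, Mael, Sycp2, Sycp1 and Slc25a31 stood whichever array was dropped. Taf7l passed in no fit that left out an array (adjusted p up to 0.116). Hormad1 passed only without Wapal shRNA1 replicate 2 (adjusted p up to 0.0856 in the others).

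Most interferon response genes outside the guanylate-binding list did not pass. Of 41 such genes on a separate list, 3 rose (7.32%) and 2 fell (4.88%), beside 2.63% and 4.9% of all genes. The median of the list was 0.01. Irf1, a transcription factor of the response, rose by 0.60 ± 0.12, and Bst2, which tethers virus particles, had 175 and 181 with Empty Vector, 334 and 315 with shRNA1 and 198 and 206 with shRNA2 and rose by 0.53 ± 0.09, mainly with shRNA1. Parp14 (-0.84 ± 0.14) and the ubiquitin ligase Trim25 (-0.53 ± 0.10) fell, and Ifit1 (0.20 ± 0.13) did not pass. Erap1, which trims peptides for antigen presentation, rose by 0.82 ± 0.16, as 1 of 2 among 21 antigen presentation genes. Of 36 cytokines, chemokines and NF-kB genes 1 rose and 2 fell: the chemokine scavenger Ackr3 had 125 and 192 with Empty Vector, 266 and 248 with shRNA1 and 479 and 493 with shRNA2 and rose by 1.19 ± 0.16 (adjusted p = 0.00895), the receptor Tlr2 fell by 0.94 ± 0.10 with 60.8 to 76 on the 4 Wapal shRNA arrays against 142 and 123 with Empty Vector, and the NF-kB inhibitor Nfkbie fell by 0.90 ± 0.11. The Bst2 call was lost with the hairpins pooled and the side of the array as a term (adjusted p = 0.0705), where a difference between the hairpins counts as spread. In each fit with 1 array fewer, Ackr3, Tlr2 and Nfkbie passed. Parp14 did not pass without Empty Vector replicate 1 or Wapal shRNA2 replicate 2 (adjusted p up to 0.0633). Bst2 passed only without Empty Vector replicate 2 (adjusted p up to 0.0823 in the others). Trim25 passed in no fit that left out an array (adjusted p up to 0.0874). Erap1 passed only without Wapal shRNA1 replicate 1 or Wapal shRNA1 replicate 2 (adjusted p up to 0.0958 in the others).

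Hypoxia-inducible genes outside glycolysis rose in 7 of 28 cases (25%) and fell in 0, beside 2.63% and 4.9% of all genes. The median of the list was 0.46 (0.54 after quantile normalization). Adm, which encodes the vasodilator peptide adrenomedullin, had 41.9 and 50 with Empty Vector, 73 and 103 with shRNA1 and 201 and 265 with shRNA2 on its brightest probe set, a rise of 1.63 ± 0.17 (adjusted p = 0.00489), with 0.92 from shRNA1 and 2.33 from shRNA2. The collagen hydroxylase P4ha1 had 214 and 319 with Empty Vector, 350.0 and 387 with shRNA1 and 515 and 592 with shRNA2 and rose by 0.78 ± 0.16, the oxidase Ero1a by 0.50 ± 0.11 and the mitochondrial protein Fam162a by 0.51 ± 0.10. Ankrd37 had 187 and 318 with Empty Vector, 280.3 and 296 with shRNA1 and 637 and 792 with shRNA2, and the shRNA1 arrays overlapped the Empty Vector arrays. Bnip3 and Ndrg1 rose as well, and Vegfa (0.48 ± 0.15) and the glucose transporter Slc2a1 (0.27 ± 0.13) did not pass. Of 24 glycolysis genes 3 rose and 0 fell, with a median of 0.27 (0.07 with shRNA1 and 0.42 with shRNA2), and 0 of the 3 calls held in all 6 fits with 1 array left out. The median difference between the Empty Vector arrays was 0.30 for the hypoxia list and 0.39 for the glycolysis list, with replicate 2 the higher, and the part of this difference in the result was not tested. With 1 array left out at a time, Adm passed in all 6 fits. P4ha1, Ero1a and Ankrd37 passed only without Empty Vector replicate 2 (adjusted p up to 0.111, 0.168 and 0.126 in the others). Fam162a passed in no fit that left out an array (adjusted p up to 0.105).

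Of 33 lysosome and autophagy genes 5 rose (15.2%) and 2 fell (6.06%), beside 3.05% and 7.82% of bright genes. After quantile normalization 7 of the list rose and 0 fell. The protease Ctsc, which activates other proteases, had 381 and 467 with Empty Vector, 766 and 785 with shRNA1 and 759 and 726 with shRNA2 and rose by 0.85 ± 0.11 (adjusted p = 0.00789) on 1 of 3 probe sets. The lysosomal membrane protein Lamp2 rose by 0.59 ± 0.12 on 3 of 4 probe sets, and the autophagosome protein Gabarapl1 by 0.51 ± 0.11. Of 30 carriers of amino acids and glucose 1 rose and 4 fell. The neutral amino acid carrier Slc43a1 rose by 0.72 ± 0.09 with 129 to 152 on the 4 Wapal shRNA arrays against 81 and 85.8 with Empty Vector, and the cationic amino acid carriers Slc7a1 (-0.64 ± 0.10) and Slc7a3 (-0.49 ± 0.12) fell, with Slc7a5 and Slc6a8. After quantile normalization 1 carrier fell, and Slc7a3 had an adjusted p of 0.0819. Ctsc and Slc43a1 passed whichever of the 6 arrays was left out. Lamp2, Gabarapl1 and Slc7a3 passed only without Empty Vector replicate 2 (adjusted p up to 0.134, 0.161 and 0.197 in the others). Slc7a1 did not pass without Wapal shRNA1 replicate 1 or Wapal shRNA2 replicate 2 (adjusted p up to 0.0594).

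Beside 2.63% of all genes that rose and 4.9% that fell (3.05% and 7.82% of bright genes), some basement membrane genes fell. Of 24 measured, 7 fell and 1 rose, with 12 changes above 0, 12 below it and a median of 0.01, and 1 of the 7 falls held in all fits with 1 array left out. After quantile normalization 4 fell and 0 rose. Lama1, the alpha chain of the laminin of the early embryo, had 106 and 126 with Empty Vector, 51.2 and 53.6 with shRNA1 and 51.9 and 61.6 with shRNA2 and fell by 1.09 ± 0.12, 2.13-fold. Its partner chain Lamc1 fell by 0.64 ± 0.12 (adjusted p = 0.0591 after quantile normalization), the collagen IV chain Col4a1 by 0.63 ± 0.10 with 151 to 167 on the 4 Wapal shRNA arrays against 238 and 255 with Empty Vector, and the linker Nid1 by 0.54 ± 0.10. The tenascin and osteopontin receptor subunit Itga9 fell by 0.67 ± 0.10, as 1 of 3 that fell among 32 integrin and focal adhesion genes, where 1 rose. The serine protease Htra1 fell by 0.73 ± 0.09 with 711 to 858 against 1363 and 1229.6. Of 30 heparan sulfate genes 2 fell and 0 rose: the sulfotransferase Hs6st1 (-0.77 ± 0.10) and the glypican Gpc4 (-0.66 ± 0.14, adjusted p = 0.0811 after quantile normalization). The calls of Lama1, Htra1 and Hs6st1 stood whichever array was dropped. Col4a1 did not pass without Wapal shRNA1 replicate 1, Wapal shRNA2 replicate 1 or Wapal shRNA2 replicate 2 (adjusted p up to 0.0543). Lamc1 passed only without Wapal shRNA1 replicate 2 (adjusted p up to 0.0801 in the others). Nid1 passed only without Empty Vector replicate 1 (adjusted p up to 0.0905 in the others). Itga9 did not pass without Empty Vector replicate 1 or Wapal shRNA2 replicate 2 (adjusted p up to 0.0633). Gpc4 passed only without Empty Vector replicate 2 (adjusted p up to 0.156 in the others).

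Chromatin genes are given here beside the 7.52% of all genes that passed. Most members of these lists were bright, and of all bright genes 3.05% rose and 7.82% fell. Among 19 genes of cohesin and its regulators 1 rose and 2 fell, Wapl included. Stag2, a subunit of cohesin, rose by 0.39 ± 0.09, and Hdac8, which deacetylates Smc3, fell by 0.56 ± 0.13 on average, with the lowest Empty Vector array at 48.3 and 1 shRNA2 array at 48.6. Rad21 (0.01 ± 0.09), Smc1a (-0.01 ± 0.09), the loader Nipbl (0.05 ± 0.09), the insulator protein Ctcf (-0.07 ± 0.09), Pds5a (-0.15 ± 0.13) and Pds5b (-0.17 ± 0.10), which bind Wapl, did not pass. Of 31 genes of H3K4 and H3K36 methylation 4 fell and 0 rose, namely Setd1b, Kmt2b (-0.46 ± 0.10), Kmt2c (-0.56 ± 0.11) and Kmt2d (-0.56 ± 0.13), and after quantile normalization only Setd1b did. Of 42 chromatin remodellers 3 fell and 0 rose, among them the BAF subunits Smarcd3 (-0.91 ± 0.16) and Arid1a (-0.67 ± 0.12, 555 to 692 against 1012 and 978). Of 17 genes of DNA methylation Gadd45g (0.66 ± 0.09) rose, and the 5-methylcytosine oxidase Tet2 fell by 0.65 ± 0.10 with 635 to 859 on the 4 Wapal shRNA arrays against 1115 and 1151 with Empty Vector, as did Trim28. Hdac8 did not pass after quantile normalization either (adjusted p = 0.0549). Tet2 and Gadd45g did not pass without Empty Vector replicate 1 (adjusted p up to 0.0506 and 0.0514). Arid1a did not pass without Empty Vector replicate 1, Wapal shRNA1 replicate 1 or Wapal shRNA2 replicate 2 (adjusted p up to 0.0881). Smarcd3 passed only without Empty Vector replicate 1 or Wapal shRNA2 replicate 2 (adjusted p up to 0.068 in the others). Stag2, Hdac8, Kmt2b and Kmt2c passed in no fit that left out an array (adjusted p up to 0.16, 0.135, 0.171 and 0.0878). Kmt2d passed only without Empty Vector replicate 2 (adjusted p up to 0.179 in the others).

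Of 36 imprinted genes, which are expressed from 1 parental copy, 2 rose and 2 fell (5.56% each), beside 2.63% and 4.9% of all genes. The zinc finger gene Plagl1, a regulator of an imprinted network, had 385 and 455 with Empty Vector, 207 and 228 with shRNA1 and 246 and 195 with shRNA2 and fell by 0.94 ± 0.13 (adjusted p = 0.00934), and Zdbf2 fell by 0.69 ± 0.10 with 301 to 344 against 516 and 522. The rising genes were Cdkn1c and Dcn. Both falls stood whichever array was dropped.

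Of 44 splicing factors, most of them bright, 1 rose (2.27%) and 5 fell (11.4%), beside 3.05% and 7.82% of all bright genes. After quantile normalization 1 rose and 2 fell. Esrp1, which sets epithelial splice forms, had 80.6 and 89.1 with Empty Vector, 136 and 156 with shRNA1 and 212 and 240.4 with shRNA2 and rose by 1.10 ± 0.11 (adjusted p = 0.0042). U2af1, which reads the 3′ splice site, had 3351 and 4116 with Empty Vector, 1784 and 1607 with shRNA1 and 2300.1 and 2315 with shRNA2 and fell by 0.91 ± 0.11 (adjusted p = 0.00718). Sf3a2, of the U2 particle, fell by 0.81 ± 0.13, and Sf3a1, Sf3b3 and Prpf3 fell too. In each fit with 1 array fewer, Esrp1 and U2af1 passed. Sf3a2 did not pass without Empty Vector replicate 1, Wapal shRNA1 replicate 1 or Wapal shRNA2 replicate 2 (adjusted p up to 0.0745).

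Genes of neurons were mostly dim, and of all dim genes 2.15% rose and 1.58% fell. Of 38 neurotrophins and neuropeptides 4 rose and 2 fell, with Adm among the former. The neurotrophin Bdnf had 22.5 and 22.9 with Empty Vector, 35.4 and 32.7 with shRNA1 and 40.9 and 42.2 with shRNA2 and rose by 0.73 ± 0.09, and the opioid precursor Penk had 220.2 and 175 with Empty Vector, 108 and 121 with shRNA1 and 102 and 106 with shRNA2 and fell by 0.85 ± 0.12. The peptide Nmu rose by 0.77 ± 0.14. Of 44 ion channels 1 rose and 2 fell, the calcium channel Cacna1a by 0.83 ± 0.12 (on 1 of 4 probe sets) and the sodium channel Scn3a by 0.81 ± 0.11 at intensities of 6.76 to 14.3, which is dim. Of 39 semaphorin, plexin, netrin and slit genes 2 rose and 3 fell: Sema4c (0.67 ± 0.11) rose with Nrp2, and Ntn1 fell with Robo1 and Sema5b. With 1 array left out at a time, Bdnf, Penk and Scn3a passed in all 6 fits. Nmu and Sema4c passed only without Empty Vector replicate 2 or Wapal shRNA1 replicate 1 (adjusted p up to 0.109 and 0.082 in the others). Cacna1a did not pass without Empty Vector replicate 1 or Wapal shRNA2 replicate 2 (adjusted p up to 0.0572).

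Of the 76 lists, the respiratory chain (42 genes), cytosolic ribosomal proteins (38), mitosis and condensin (51), cholesterol synthesis (21), the retinoic acid pathway (22) and the ErbB receptors and ligands (14) had 0 genes that rose and 0 that fell by limma's adjusted p. At an unadjusted p under 0.05, 14 of these 188 genes were higher and 14 lower. Their medians lay between 0.00 and 0.11. These counts are of brightest probe sets. On another probe set, 1 mitosis and condensin gene rose and 4 fell, and 1 retinoic acid gene rose. Likewise 2 respiratory chain genes and 1 ribosomal protein gene fell. After quantile normalization 1 mitosis and condensin gene and 1 cholesterol synthesis gene rose. Over all lists 107 of 2257 measured genes rose and 157 fell, and of all 18193 genes 2.63% rose and 4.9% fell.

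**Figure D4:**
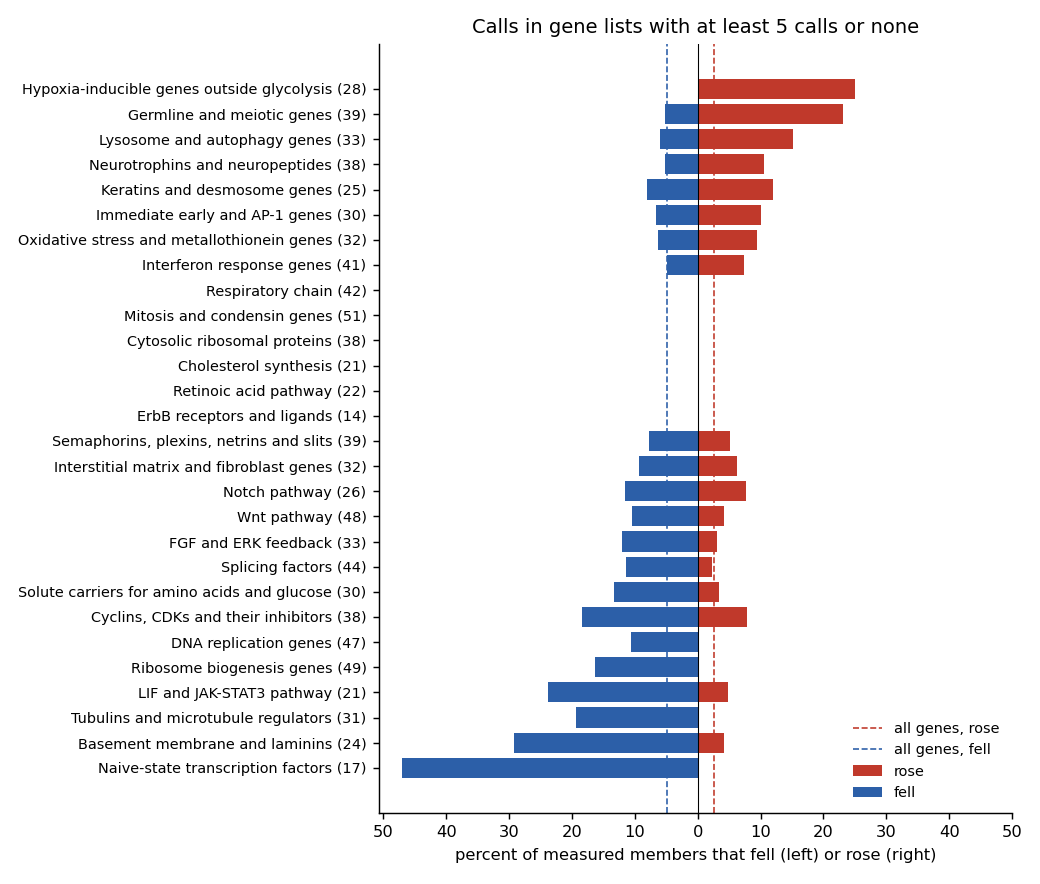
Percent of the measured members of a gene list that rose or fell with Wapal depletion (horizontal axis), for lists with 5 or more calls or with none, 1 list left out (vertical axis), with the shares over all genes as dashed lines. Naive-state transcription factors and basement membrane genes hold the largest shares that fell among the lists shown, and hypoxia-inducible and germline genes the largest that rose, with the respiratory chain and ribosomal proteins at 0, and after quantile normalization 4 of 24 basement membrane genes fell.

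Some called genes lay beside another gene that was called in the same direction. In the order of 18029 measured genes on the chromosomes, 167 of 888 genes that fell (18.8%) had a fallen gene as a direct neighbour, against 9.51% of all genes and 10.2% of bright genes that were not called. For rises it was 48 of 477 (10.1%) against 5.16%. A neighbour called the opposite way was found for 29 genes that rose (6.08%) and 30 that fell (3.38%). After quantile normalization the shares were 13.5% for falls, against 5.08% of all genes, and 8.73% for rises, against 5.18%. These shares are descriptions and were not tested.

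The runs named next were chosen after their values were seen. On chromosome 1, Tfcp2l1 (-0.62 ± 0.12), Gli2 (-1.05 ± 0.13) and Inhbb (-0.93 ± 0.11) are successive measured genes and all fell. The genes on both sides of them, Clasp1 (-0.03) and Ralb (-0.07), did not pass. A run of 4 genes on chromosome 11 fell, namely 2210409E12Rik (-0.53 ± 0.12), Coil (-0.39 ± 0.09), Trim25 (-0.53 ± 0.10) and Dgke (-0.76 ± 0.14), between Elobl (-0.08) and Dgkeos (-0.06), which did not pass. On chromosome 9, Pml (-0.83 ± 0.15), Stoml1 (-0.50 ± 0.10) and Loxl1 (-0.49 ± 0.11) fell, between 1600029O15Rik (-0.12) and Tbc1d21 (0.02). Beside Msc, Trpa1 fell by 0.70 ± 0.13, and beside Epop, Mllt6 fell by 0.66 ± 0.12. Pairs of related genes that fell together were Bhmt (-0.71 ± 0.16) with Bhmt2 (-0.64 ± 0.11), of methionine metabolism, and Fbp2 (-0.82 ± 0.11) with Fbp1 (-0.60 ± 0.11), of gluconeogenesis. Cdkn1b rose with Lockd (0.78 ± 0.11), a noncoding RNA gene beside it. With quantile normalization the calls of 2210409E12Rik (adjusted p = 0.0856), Coil (0.0888) and Stoml1 (0.0605) were lost. Gli2, Inhbb and Fbp2 passed whichever of the 6 arrays was left out. Tfcp2l1 passed only without Empty Vector replicate 1 (adjusted p up to 0.0968 in the others). 2210409E12Rik, Dgke, Trpa1 and Mllt6 passed only without Empty Vector replicate 2 (adjusted p up to 0.182, 0.107, 0.0894 and 0.0911 in the others). Pml passed only without Empty Vector replicate 2 or Wapal shRNA2 replicate 2 (adjusted p up to 0.101 in the others). Bhmt passed only without Wapal shRNA1 replicate 2 (adjusted p up to 0.133 in the others). Bhmt2 passed only without Empty Vector replicate 1 or Wapal shRNA2 replicate 1 (adjusted p up to 0.073 in the others). Fbp1 passed only without Empty Vector replicate 2 or Wapal shRNA2 replicate 1 (adjusted p up to 0.109 in the others). Lockd did not pass without Empty Vector replicate 1 (adjusted p up to 0.0512). Coil, Trim25, Stoml1 and Loxl1 passed in no fit that left out an array (adjusted p up to 0.125, 0.0874, 0.0936 and 0.12).

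**Figure D5:**
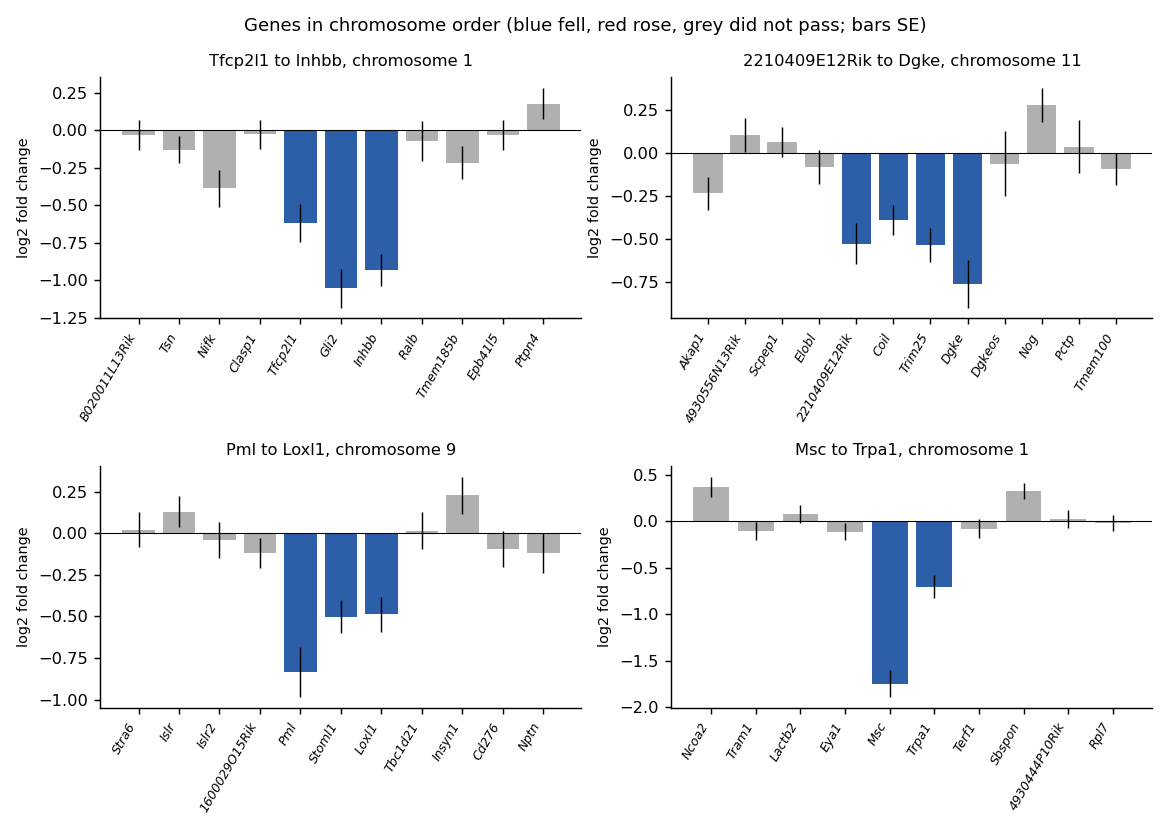
Change of successive measured genes in log2 with its SE (vertical axis) in 4 windows of gene order (horizontal axis). The genes from Tfcp2l1 to Inhbb, from 2210409E12Rik to Dgke, from Pml to Loxl1, and Msc with Trpa1, fell, the genes beside each run did not pass, and 2210409E12Rik, Coil and Stoml1 did not pass after quantile normalization.

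The X chromosome had the highest share of rising genes among the chromosomes with over 100 genes. Of 617 measured X-linked genes 41 rose (6.65%) and 20 fell (3.24%), beside 2.63% and 4.9% of all genes. Of the 307 bright ones 25 rose and 15 fell, beside 3.05% and 7.82% of all bright genes. Most of the 41 rises did not hold in every fit with 1 array left out. The next highest share was on chromosome 13 (37 of 702, 5.27%). Named after their values were seen, Tcp11x2 and Prrg1 gave the largest rises on X that held in all 6 fits, and Egfl6 (-1.05 ± 0.13), a secreted protein with EGF repeats, Dcaf12l1 (-1.01 ± 0.12) and Nkrf (-0.80 ± 0.10), a repressor of NF-kB target genes, fell with calls that held there. At the X inactivation center, Tsix, the antisense partner of Xist, had 62.4 and 41.2 with Empty Vector, 28.7 and 27.2 with shRNA1 and 30.1 and 28.1 with shRNA2 and fell by 0.83 ± 0.16 (adjusted p = 0.0247), and Tsx fell by 0.63 ± 0.13. The brightest Xist probe set gave -0.32 ± 0.14 (adjusted p = 0.202), and Rlim, a ubiquitin ligase that activates Xist, rose by 0.41 ± 0.09. Tsix and Xist are transcribed from opposite strands of 1 locus. Tsix passed only without Empty Vector replicate 2 (adjusted p up to 0.0881 in the others). Tsx passed in no fit that left out an array (adjusted p up to 0.114). The Rlim call was lost without each array.

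The promoters of genes that fell held more CpG than those of genes that rose. The ratio of observed to expected CG in the RefSeq window was over 0.6 for 71.4% of 706 genes that fell, 47.6% of 370 that rose and 57.0% of all 14367, with no test. Among bright genes the shares were 74.2%, 55.5% and 77.4%, so the falling genes lay near other bright genes and the rising genes below them. Under the stricter rule the share was 58.7% of 150 falling genes, close to that of all genes, and 46.1% of 102 rising genes. Among the bright genes that met this rule it was 63.9% and 50.8%, so both then lay below the 77.4% of all bright genes. After quantile normalization the gap between falling and rising genes was 13.8 percentage points in place of 23.8. Of the motifs searched on both strands, TGACTCA, the AP-1 site, was in 6.22% of rising, 2.83% of falling and 4.36% of all windows. ACGTG, the core of the hypoxia response element, was in 22.2%, 26.6% and 23.2%, and CACGTG, the E-box that Myc binds and that holds the letters ACGTG, in 9.73%, 11.8% and 9.04%. Under the stricter rule ACGTG was in 23.5% of 102 rising and 20% of 150 falling windows, CACGTG in 11.8% and 4.00% and TGACTCA in 8.82% and 4.00%, so the order of rising and falling windows for ACGTG and CACGTG turned round. The Gli site GACCACCCA was in 0 rising and 0 falling windows and 0.195% of all, and the Ctcf letters CCA, any 2 bases, AG, any 2 bases and GGC in 1.62%, 2.97% and 2.60%.

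The promoter of Rab6b is shown as a CpG-rich window of a gene that fell, beside the CpG-poor windows of Gbp2b and Gbp2 above. It lies at chr9:103111824-103112123 on the plus strand (RefSeq, GRCm38.p6) and holds 42 CG, a ratio of 1.02, with CG in capitals. These windows are not typical of their groups. The median ratio was 0.76 for genes that fell (0.68 under the stricter rule), 0.57 for genes that rose and 0.67 for all genes. Gbp2b and Gbp2 had ratios of 0.07 and 0.15.
Rab6b: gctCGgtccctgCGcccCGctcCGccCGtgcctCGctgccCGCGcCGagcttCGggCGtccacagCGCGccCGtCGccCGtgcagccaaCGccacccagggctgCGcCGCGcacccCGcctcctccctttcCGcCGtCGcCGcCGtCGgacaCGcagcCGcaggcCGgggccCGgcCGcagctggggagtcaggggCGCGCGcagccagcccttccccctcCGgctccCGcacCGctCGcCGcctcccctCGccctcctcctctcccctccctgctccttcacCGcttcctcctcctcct
Rab6b had an intensity of 89.1 and 95.4 with Empty Vector, 30.1 and 22.4 with shRNA1 and 42.5 and 48.8 with shRNA2, with 3 of its 4 probe sets falling.

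On the Smc3 shRNA arrays, which were compared with the same 2 Empty Vector arrays, the same genes gave the following mean changes, and no difference between the depletions was tested here. Lefty1 gave 3.06 with Smc3 depletion beside 1.18 with Wapal depletion, Gbp2b 4.16 beside 2.79, and Inhbb -2.88 beside -0.93. Myc gave -1.48 beside -1.43, Tbx3 -1.32 beside -1.05, and Cyria -1.08 beside -1.68. Msrb2 gave 0.16 beside -1.20, Gli1 0.49 beside -1.10, Lama1 -0.22 beside -1.09, Fstl5 -0.06 beside 1.70 and Sycp3 0.31 beside 1.17.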

How the data were processed

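Expression was measured on Affymetrix Mouse Genome 430 2.0 arrays, of which 6 of 10 entered the comparison. The authors processed the scans with RMA, and the deposited table gives each probe set's intensity without a log. The version of RMA, and which arrays it ran on together, are not given in the sources used here. RMA subtracts background, brings the arrays to a common distribution and summarises the probes. A shift shared by most genes would therefore be lost, and differences among dim probe sets are compressed. For the tests the deposited intensities were converted to log2, and all columns of the table were mapped to samples.

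Without 64 control probe sets, 45037 were tested and no low values were removed. Group means were fitted by limma 3.58.1 in R 4.3.3 (lmFit, eBayes) without further terms, and both Wapal shRNA means were averaged and set against Empty Vector. Every adjusted p is two-sided, from limma, and adjusted by Benjamini-Hochberg over all probe sets, with a threshold of 0.05. The platform annotation gave 1 symbol to 34945 probe sets, several to 932 and none to 9160, and gene IDs of 34741 were found in the RefSeq table. A gene was read from its brightest probe set with 1 symbol (18193 genes). Of 773 called genes with several probe sets, 245 had the same call on another and 4 the opposite one.

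Named genes were, in each direction, the 25 with the largest smaller change of both hairpins among genes that passed, exceeded 1.5-fold with both and did not overlap between groups. From each of 76 lists they were up to 5 members that passed with the smallest adjusted p, and members by which the list is known. The members and lists were chosen with earlier results of these data known, and lists are described by counts and medians. The members of 1 list are not reported here. The mesoderm marker T was not measured under that symbol. Gene order and promoter windows came from RefSeq (GRCm38.p6). The scripts were tested on simulated data. The alternatives were all 10 arrays in 1 model, the replicate number as a block, pooled hairpins with and without the side as a term. Others were a second quantile normalization, an offset of 16 before the log, a limit on dim probe sets and a trended robust prior. The rest were exchanged labels of 2 arrays, another call rule, any probe set of a gene, another CpG limit and the removal of each array.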

Additional observations from a re-analysis of the deposited data

Results flagged for a closer look

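Wapl and 163 other named genes were followed through the fits, and genes given only briefly, such as Stk31, Prdm14 and Klf2, were not. In 22 of those followed the difference between the hairpins passed limma's test. It is given here as the log2 change with Wapal shRNA1 minus that with shRNA2. The groups held 2 arrays each, so no single array was tested as an outlier. Each hairpin shares its side with 1 Empty Vector array, and these differed by under 50% of the hairpin difference in 20 of the 22 genes, with -0.08 for Wapl (Empty Vector replicate 1 minus replicate 2). The exceptions were Anxa2 (-0.97) and Ankrd37 (-0.76), and Gbp2b gave -0.60. In 11 of the 22 genes the Empty Vector difference had the sign of the hairpin difference.

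Wapl itself differed by 2.10 ± 0.11, with the lower level under shRNA2. Among rising genes, the difference was -1.39 for Gbp2b, -1.70 for Gbp2, -1.42 for Anxa2, -1.41 for Adm, -1.30 for Ankrd37, -0.95 for Lef1, -0.92 for Cdkn1c, -0.68 for Dll1 and -0.59 for Gadd45g, which all stood higher with shRNA2. Germline genes went the other way, with 1.31 for Sycp1, 1.20 for Taf7l, 0.93 for Slc25a31, 0.85 for Hormad1 and 0.66 for Mael, as did Bst2 (0.68) and Pla2g7 (0.63). Among followed genes that fell, the difference was -1.43 for Tubb3, -1.36 for Ccnd2 and -0.85 for Inhbb. It was -0.75 for Kif5c and -0.74 for Mapre2, and all of these genes lay lower with shRNA1. Over all followed genes given here, limma's adjusted p of the difference lay between 0.00153 and 0.0493. Stk31, which was not followed, fell further with shRNA2 than with shRNA1.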

How the results depend on the processing

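The fit reported called 2661 probe sets. Without 1 array, which leaves 2 residual degrees of freedom, the count lay between 496 (without Wapal shRNA2 replicate 2) and 2281 (without Empty Vector replicate 2), and it was 683 or less in every fit but the latter. It was 4264 with all 10 arrays in 1 model, 4567 with a trended robust prior, 698 with the hairpins pooled, and 611 with the call rule of an unadjusted p under 0.05 and over 1.5-fold with both hairpins. With the labels of 2 arrays exchanged it was 51, and Wapl kept its change of -2.46 but not its call (adjusted p = 0.159), as with the hairpins pooled (adjusted p = 0.0889). Wapl passed in every other fit. The 321 genes over 1.5-fold became 30 with the labels exchanged, 187 with an offset of 16, and 208 (without Wapal shRNA2 replicate 2) to 452 (without Empty Vector replicate 2) with 1 array left out. The replicate numbers did not pair the samples (correlations of deviations between groups of 0.022, 0.035 and -0.062). The replicate block called 1920 probe sets and 155 of the 163 genes that were followed through the fits. The genes that differed between the hairpins numbered 264, and 762 with all 10 arrays, 668 among bright probe sets, 437 with the offset, 1215 with the trended prior and 161 with the replicate block. With the labels exchanged limma called 0 of them, and 267 had an unadjusted p under 0.05. Leaving out either Empty Vector array gave 726, and leaving out any Wapal shRNA array 0 or 1 (1933 to 2394 at an unadjusted p under 0.05). Of the 163 genes followed, 162 passed with all 10 arrays, 160 with the offset and 149 with quantile normalization. With the hairpins pooled 100 passed, with the side as a further term 157, and with the labels exchanged 24. Quantile normalization lowered the gap in CpG-rich promoters from 23.8 to 13.8 percentage points and the share of falling genes with a falling neighbour from 18.8% to 13.5%, and the CpG gap was 18.7 points among bright genes alone. The cause of these shifts was not tested. None of the 163 genes changed sign in the alternatives run. With quantile normalization the median of bright genes (-0.06 and 0.01) changed sign. So did that of some lists near 0, such as the Notch list (-0.03 and 0.03). The alternatives on the hairpin difference, and quantile normalization of lists, neighbours and promoters, were chosen after seeing the data.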
